A study of Mus musculus with 2 samples.

Results

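Transcripts of 9 cell surface adhesion molecules were examined in colonies that mouse mammary basal cells formed in culture, either untreated or kept with TNF-α. The genes were Icam1, Icam2, Vcam1, Alcam, Mcam, Cd44, Cd47, Epcam and F11r. They were picked by name from the 49492 genes of the deposited count table, and 9 of 9 were found there. Basal cells (CD24+ CD29hi, negative for CD45, CD31 and TER119) were sorted from the mammary glands of adult wild-type female mice, which the methods give as 8 to 10 weeks old, and were grown in matrix gel with EGF and ITS. The control culture had no further addition, and the other culture received recombinant mouse TNF-α at 10 ng/mL for 10 days. Each culture gave 1 library, the differences below therefore lack replicates, and the number of mice behind each culture was not given in the sources used here. Although the series text speaks of microarrays, the table holds whole-number read counts, with a total of 44462275 for the control and 53487087 for TNF-α.

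Leukocytes leave the blood and settle in a tissue by holding on to proteins on the cells they meet. ICAM-1, ICAM-2 and JAM-A, the product of F11r, are ligands of the leukocyte integrin LFA-1, and VCAM-1 is the ligand of α4 integrins on lymphocytes and monocytes. CD44 binds hyaluronan, CD47 binds SIRPα on macrophages as a signal against engulfment, and ALCAM, MCAM and EpCAM hold cells to cells of the same or another kind. TNF-α signals through its receptors to the transcription factor NF-κB, and ICAM-1 and VCAM-1 on blood vessel endothelium are textbook targets of that route. Epithelium carries several of these molecules as well. Colonies grown from basal cells sorted away from leukocytes are thus a setting for measuring transcripts of these molecules on the epithelial side.

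RefSeq promoter windows (GRCm38.p6, from 250 bases before to 50 bases after a transcript start) were at hand for 7 of the 9 genes, 8 windows in all, and Vcam1 and Icam2 had no entry. The sequences before the start of Icam1 and Cd47 are shown because both genes were past 2-fold on the higher side in the TNF-α library. For Icam1 the bases after the RefSeq start were left off, and for Cd47 the bases that were also deposited as exon. The Icam1 stretch lies at chr9:21015690-21015939 on the plus strand, and its capitals mark GGAAATTCC, a form of the NF-κB site, and TTCCCGGAA, a match to the GAS element TTCNNNGAA read by STAT factors. The Cd47 stretch, from 1 of its pair of windows, lies at chr16:49855404-49855617 on the plus strand and holds no capitals.
Icam1: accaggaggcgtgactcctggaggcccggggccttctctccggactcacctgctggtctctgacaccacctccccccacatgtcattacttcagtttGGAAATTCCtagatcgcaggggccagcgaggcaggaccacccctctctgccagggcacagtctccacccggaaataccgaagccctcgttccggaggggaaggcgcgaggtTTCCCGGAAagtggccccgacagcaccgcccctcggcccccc
Cd47: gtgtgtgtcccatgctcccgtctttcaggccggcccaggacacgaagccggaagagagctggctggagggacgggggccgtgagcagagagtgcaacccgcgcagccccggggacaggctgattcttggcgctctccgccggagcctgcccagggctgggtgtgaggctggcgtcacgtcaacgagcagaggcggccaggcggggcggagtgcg

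The windows were searched on both strands for 6 motifs, which did not overlap each other in Icam1. GGAAATTCC began at position -153 from the RefSeq start of Icam1 and stood in 0.317% of all 32851 windows of the same length. The GAS match began at position -42, and 8.30% of all windows held TTCNNNGAA. TATAAA, the core of a TATA box, began at base 14 after the RefSeq start, which is 32 bases before the first deposited exon of Icam1, and 13.6% of all windows held it. Of the other windows, F11r alone held a match, to the AP-1 site TGANTCA (7.81% of all windows). The general NF-κB consensus (8.46%) and the ISRE core GAAANNGAA (8.56%) matched in none of the 8 windows. GGAAATTCC is a single fixed string, so its share cannot be set against that of a motif with open letters. The motifs were chosen after the values were seen, so the shares do not test any of them. Such matches are letters in a window and do not show that a factor was bound.

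Of the 9 genes, 8 had at least 10 counts summed over both libraries and were compared, and Icam2 was not. Vcam1, Cd47 and Icam1 passed a 2-fold threshold upwards with TNF-α, none passed it downwards, and 5 lay within 2-fold, among them Cd44 just under the threshold. Past the same threshold were 8.56% of all 20771 genes compared on the higher side and 6.62% on the lower side. These shares include genes with few counts. Of the 15605 genes with at least 1 CPM in a library, 836 were past it on the higher side and 658 on the lower side. The calls of Cd47 and Icam1 rest on the threshold and on the spread assumed between cultures, since at a fold of 3, or with an assumed coefficient of variation of 0.4, 1 of the 9 genes, Vcam1, was called. The median log2 ratio (TNF-α to control, from CPM, counts scaled to a fixed library size) of the 8 genes was 0.63, beside 0.0038 over all genes compared, and with no filter on counts, which brings in Icam2, it was 0.29. Since the genes were chosen with earlier results of these data known, the median is not a test of the set. Of the 8, 6 lay above a log2 ratio of 0, and for the other two, Mcam and F11r, the 95% interval of the ratio included no change. These intervals cover the counting error of reads only and leave out the spread between cultures. PCR reads may repeat a molecule, so the intervals can be too narrow for counts of molecules.

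**Figure D1:**
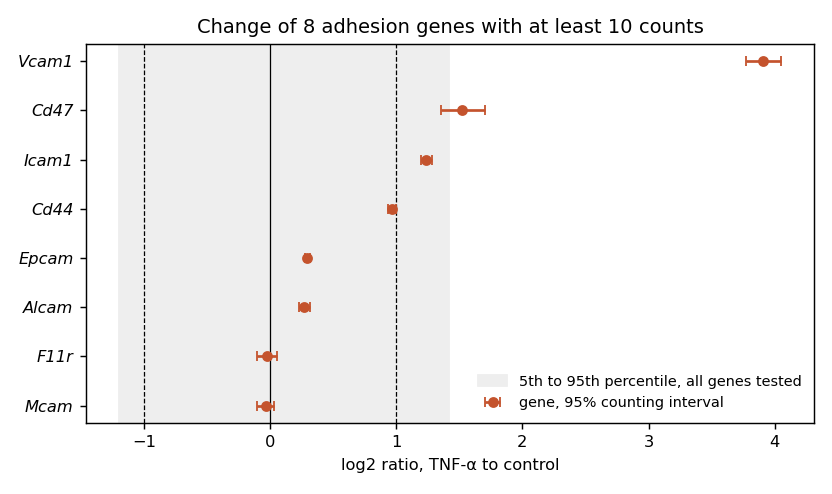
Log2 ratio of TNF-α to control for the 8 genes with at least 10 counts, with the 95% Clopper-Pearson interval for counting error as bars, the 2-fold thresholds as dashed lines and the 5th to 95th percentile of all genes compared (-1.20 to 1.42) in grey. Vcam1 at 3.91 and Cd47 at 1.52 lie beyond the grey band, and Mcam and F11r sit near 0. All 8 genes have at least 1000 counts over both libraries. Over all genes with as many counts, which are not drawn, the same percentiles were -0.61 and 0.71. Icam1 at 1.24 and Cd44 at 0.96 also lie beyond that range.

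Vcam1, the ligand of α4 integrins, lies on chromosome 3 of GRCm38 from 116109949 to 116129688 on the minus strand. It had 439 counts in the control library (9.85 CPM) and 7905 in the TNF-α library (148 CPM). Its log2 ratio was 3.91 (95% interval 3.77 to 4.05), a fold of 15.0, and it ranked 54 of 20771 from the highest. Per exon length, its level moved from 1.11 RPKM (read counts scaled to exon length and library size) to 16.7 RPKM, from percentile 36.2 of all genes compared to percentile 84.1. Gm43109 on the opposite strand shares 61 exon bases with Vcam1 and went from 28 to 393 counts, a log2 ratio of 3.47. Whether counting used the strand is not given in the sources used here, so reads in shared bases cannot be told apart. Extl2, a gene beside Vcam1, had a log2 ratio of -0.25.

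Icam1, a ligand of LFA-1 and Mac-1, lies on chromosome 9 from 21015985 to 21028817 on the plus strand. It had 5351 counts in the control (120 CPM) and 15121 with TNF-α (283 CPM), a log2 ratio of 1.24 (95% interval 1.19 to 1.28) and a fold of 2.36. Unlike Vcam1, Icam1 was already well above the middle of all genes in the control library, at 27.5 RPKM and percentile 90.4, and with TNF-α it stood at 65.0 RPKM and percentile 96.1. The level of Icam1 was 24.8 times that of Vcam1 without TNF-α and 3.89 times that of Vcam1 with it. A gene with a clone name on the opposite strand shares 511 exon bases with Icam1 and went from 73 to 255 counts, a log2 ratio of 1.52, with the same limit on strand. Mrpl4, the nearest gene on the other side, had a log2 ratio of -0.44.

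The gene next to Icam1 moved the other way. Icam5, which belongs to the same family and is best known from neurons, begins 3255 bases after the end of Icam1 on the same strand, and it had 210 counts in the control and 98 with TNF-α, a log2 ratio of -1.34 (95% interval -1.72 to -1.01). Icam4, the red cell member of the family, had 1 count and 4 counts. Icam1 was thus by far the most counted of these family members.

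Icam2, a ligand of LFA-1 best known from endothelium and platelets, lies on chromosome 11 from 106377656 to 106388075 on the minus strand and had 4 counts in each library. This was 0.0471 RPKM in the control (95% interval 0.0128 to 0.121) and 0.0394 RPKM with TNF-α (0.0107 to 0.101). The interval of its log2 ratio ran from -2.68 to 2.16, so a difference was not detectable at this depth. Of the genes beside it, Ern1 had 1724 and 1835 counts and Scn4a had 4 and 6.

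F11r encodes JAM-A, a component of tight junctions that LFA-1 also binds, and lies on chromosome 1 from 171437535 to 171464603 on the plus strand. It had 2579 counts in the control (57.9 CPM) and 3034 with TNF-α (56.9 CPM), a log2 ratio of -0.03 (95% interval -0.10 to 0.05). The interval leaves room for a fold of 0.932 to 1.04 between these libraries. The related genes Jam2 and Jam3 were counted far less often, with 159 and 117 counts for Jam2 and 45 and 74 for Jam3.

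**Figure D2:**
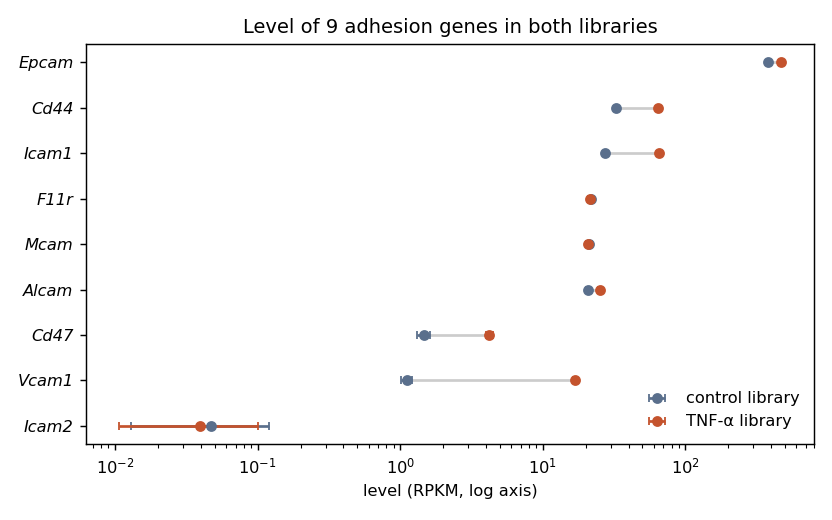
Level of each of the 9 genes in the control and the TNF-α library in RPKM on a log axis, with exact 95% Poisson intervals as bars and a grey line joining both libraries. Epcam is highest in both libraries, Vcam1 shows the longest line (1.11 to 16.7 RPKM), and Icam2 lies under 0.1 RPKM.

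Cd44, the hyaluronan receptor and a marker of many stem cell populations, lies on chromosome 2 from 102811141 to 102901665 on the minus strand. It had 9894 counts in the control (222.0 CPM) and 23114 with TNF-α (433 CPM), a log2 ratio of 0.96 (95% interval 0.93 to 0.998) and a fold of 1.95. The whole interval lay under the 2-fold threshold, and with counts halved it ran from 0.92 to 1.01. Halving allows for fragments counted once per read end, since 2172 genes had 2 counts in the control and 618 had 1. In CPM, Cd44 gained more than any other of the 9 genes, 211 CPM. Per exon length the gain was 31.2 RPKM, beside 37.5 for Icam1, 15.6 for Vcam1 and 86.4 for Epcam. Cd44 transcripts differ in a block of variable exons, and counts per gene cannot separate them.

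Cd47, the partner of SIRPα, lies on chromosome 16 from 49855618 to 49915010 on the plus strand. It had 345 counts in the control (7.74 CPM) and 1191 with TNF-α (22.3 CPM), a log2 ratio of 1.52 (95% interval 1.35 to 1.70) and a fold of 2.87. The CD47 protein is found on most cell types, but the level of its transcript in these counts was 1.47 RPKM in the control and 4.23 RPKM with TNF-α, at percentiles 40.6 and 59.7 of all genes compared. No other gene's exons overlapped those of Cd47, and the flanking genes Gm15518 and Bbx had log2 ratios of -0.12 and 0.16. GENCODE M21 starts Cd47 far upstream of the deposited start (a difference of -55085 bases), beside a deposited span of 59393 bases. The part of this difference in the low level of Cd47 was not tested. GENCODE M21 also ends Epcam 23 bases further on, while the other 7 genes have the same coordinates in both.

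Epcam, which encodes the epithelial cell adhesion molecule, lies on chromosome 17 from 87635979 to 87651106 on the plus strand. With 34617 counts in the control (777 CPM) and 50851 with TNF-α (953 CPM), it was the most abundant of the 9 genes in both libraries. Its log2 ratio was 0.29 (95% interval 0.28 to 0.31), a fold of 1.23. Cldn7, the claudin that associates with EpCAM, had 1230 and 1641 counts and a log2 ratio of 0.16.

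Alcam, whose product binds itself and CD6 on T cells, spans 205079 bases of chromosome 16 from 52248996 to 52454074 on the minus strand, the longest of the 9 genes. It had 6574 counts in the control (148 CPM) and 9505 with TNF-α (178 CPM), a log2 ratio of 0.27 (95% interval 0.23 to 0.32). Mcam, also called CD146 and known from endothelium, pericytes and smooth muscle, lies on chromosome 9 from 44134469 to 44142727 on the plus strand. It had 3173 counts in the control (71.2 CPM) and 3705 with TNF-α (69.4 CPM), a log2 ratio of -0.04 (95% interval -0.10 to 0.03). Alcam and Epcam were thus slightly higher by more than the counting error, at folds of 1.21 and 1.23, and Mcam was level.

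**Figure D3:**
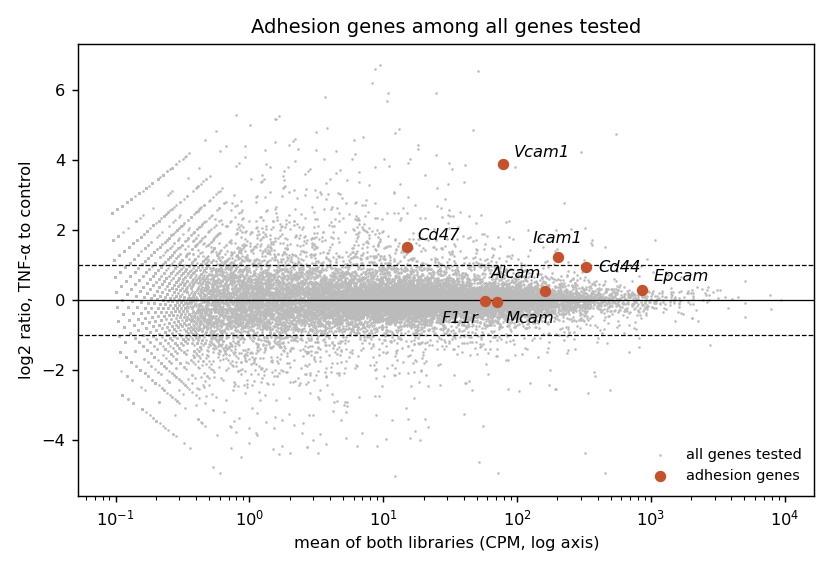
Log2 ratio of TNF-α to control against the mean of both libraries (CPM, log axis) for all 20771 genes compared (grey) and the 8 adhesion genes (orange), with the 2-fold thresholds dashed. Vcam1 at 3.91 stands above nearly all genes of like abundance, Cd47 and Icam1 lie above the upper threshold, and the rest lie between the thresholds.

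The order of the levels changed between the libraries. In the control it ran, per exon length, from Epcam (381 RPKM) over Cd44 (32.8 RPKM), Icam1, F11r, Mcam and Alcam (20.7 RPKM) to Cd47, Vcam1 and Icam2, and the counting intervals of F11r and Mcam and of Mcam and Alcam overlapped. With TNF-α it ran from Epcam (467 RPKM) over Icam1, Cd44 (63.9 RPKM), Alcam (25.0 RPKM), F11r and Mcam (20.7 RPKM) to Vcam1, Cd47 and Icam2, and the intervals of Icam1 and Cd44 and of F11r and Mcam overlapped. Every other pair of neighbours was separated by more than the counting error of the counts as deposited. Level intervals with halved counts, which would be wider, were not taken. Epcam made up 75.0% of the summed level of the 9 genes in the control and 68.3% with TNF-α. The other 8 genes together stood at 127 RPKM in the control and 217 RPKM with TNF-α. The level of Epcam was 13.8 times that of Icam1 in the control and 7.19 times that of Icam1 with TNF-α.

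A list of 30 related adhesion molecules (selectins, junctional adhesion molecules, nectins, tetraspanins and others) went both ways. Of its 26 genes with at least 10 counts, 3 were more than 2-fold higher, 2 more than 2-fold lower and 21 within 2-fold, beside 8.56% higher and 6.62% lower over all genes compared, and the median log2 ratio was 0.06. Madcam1, the mucosal ligand of α4β7 integrin, was highest with 2 counts in the control and 16 with TNF-α, a log2 ratio of 1.99 (95% interval 0.65 to 5.90). Cd34 (138 and 473 counts) and Ncam1 (322 and 813 counts) had log2 ratios of 1.51 and 1.07. Selp, which encodes P-selectin, was lowest at -1.49 with 8 and 2 counts (95% interval -5.53 to 0.07), and Icam5 was the other gene past the lower threshold. Sele, which encodes E-selectin, an endothelial partner of ICAM-1 and VCAM-1 in inflammation, had 0 counts in the control and 6 with TNF-α. Of the genes within 2-fold, Cxadr, a junctional protein of epithelium, had the highest log2 ratio at 0.82 (8528 and 18026 counts).

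Most of the receptors through which leukocytes bind these molecules had few counts, with Sirpa and, in the TNF-α library, Itga4 above the rest. Their list of 10 genes summed to 8.71 CPM in the control and 13.3 CPM with TNF-α. Of the 6 genes with at least 10 counts, 1 was more than 2-fold higher and 1 more than 2-fold lower (median log2 ratio 0.06). The shares over all genes compared were 8.56% higher and 6.62% lower. Itga4, the α4 integrin that binds VCAM-1, went from 26 to 180 counts, a log2 ratio of 2.45 (95% interval 1.93 to 3.18). Itgal, the LFA-1 α chain, had 11 counts in the control and 0 with TNF-α, which is 4.39-fold lower if 3 counts stand for the 0. The 95% interval of its log2 ratio reached up to -1.59, so a smaller fold is not excluded by counting error. Itgb2, the β chain of LFA-1 and Mac-1, had 56 and 52 counts (log2 ratio -0.35, 95% interval -0.94 to 0.20). Itgam had 50 and 40 counts, Itgb7 11 and 19, Itgax 2 and 7, and Itgad 2 and 0. Cd6, the T cell partner of ALCAM, and Siglec1, which is found on macrophages, had 0 counts in both libraries. Sirpa, the receptor of CD47, stood at a log2 ratio of 0.58 with 230 and 412 counts (95% interval 0.34 to 0.82).

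Partners in the matrix and in the epithelium itself were more abundant. Of 12 genes, 4 were past 2-fold on the higher side, none on the lower side and 8 within 2-fold. Over all genes compared, 8.56% were past it on the higher side and 6.62% on the lower side. The median log2 ratio of the 12 genes was 0.08. Lama4, the laminin α4 chain to which MCAM binds, was highest at 1.81 (1409 and 5940 counts), although Mcam itself was level. Has2, which makes the hyaluronan that CD44 binds, stood at 1.20 with 1082 and 2984 counts (95% interval 1.10 to 1.31). Has1 was rare (4 and 18 counts, log2 ratio 1.53) and Has3 had 172 and 124 counts, a log2 ratio of -0.72. Of the CD47 ligands, Thbs2 had a log2 ratio of 1.06 and the far more abundant Thbs1 one of -0.08 (53893 and 61160 counts). Itgb1, the integrin β1 chain (CD29) that pairs with α4, had 21127 and 30248 counts, a log2 ratio of 0.26. Tspan8, a tetraspanin of epithelium, was lowest at -0.76.

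Surface adhesion molecules are also cut, anchored and spliced by other proteins. Of 17 such genes, 1 was more than 2-fold higher and 16 within 2-fold (median log2 ratio 0.05). Over all genes compared, 8.56% were more than 2-fold higher and 6.62% more than 2-fold lower. Mmp9, a secreted protease that can release ICAM-1, was highest at 2.77 with 97 and 804 counts (95% interval 2.49 to 3.11). Adam17, which sheds VCAM-1 and ALCAM, had a log2 ratio of 0.55 (3484 and 6127 counts), and Adam10, which cuts CD44, one of 0.04. Of the proteins that tie CD44 and ICAM-1 to the actin skeleton, Msn had a log2 ratio of 0.80 (42333 and 87973 counts), Ezr one of 0.11 and Rdx one of -0.09. Esrp1, which promotes inclusion of the variable exons of Cd44, had a log2 ratio of 0.05, and its relative Esrp2 was lowest in the list at -0.40.

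**Figure D4:**
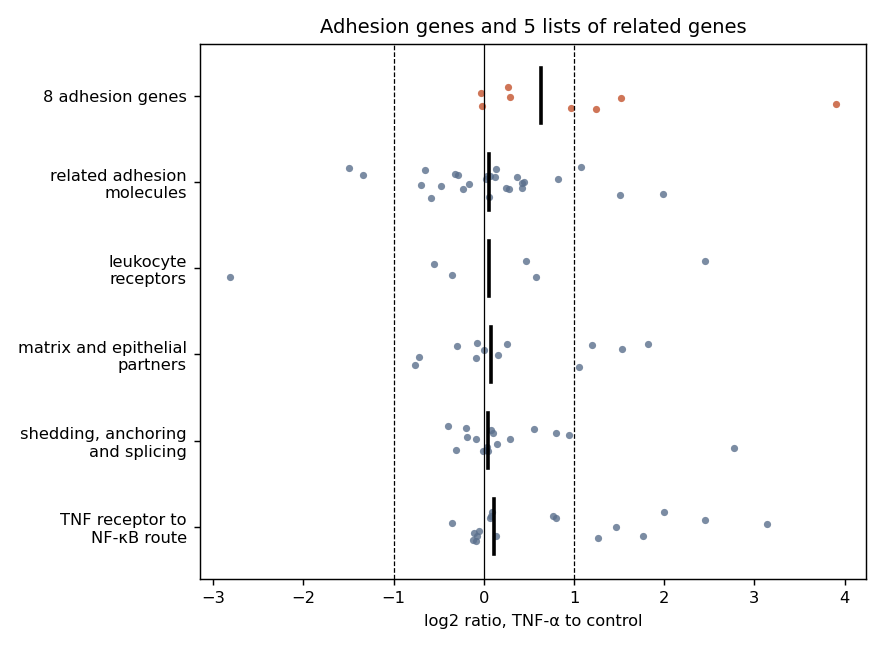
Log2 ratio of TNF-α to control of each gene with at least 10 counts (points, spread vertically for sight only), in the 8 adhesion genes (orange) and 5 lists of related genes (blue), with list medians as black bars and the 2-fold thresholds dashed. The 8 adhesion genes have a median of 0.63 and the 5 lists medians between 0.05 and 0.11, and the lowest point, Itgal, is a fitted value for a gene with 0 counts in the TNF-α library. Genes and lists were chosen with earlier results of these data known, so the medians are not a test.

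A list of 18 genes was compared that held the TNF receptors, signal carriers, NF-κB subunits, the inhibitors IκBα and A20, and Irf1. Of these, 6 were past 2-fold on the higher side in the TNF-α library and none on the lower side (median log2 ratio 0.11). The shares over all genes compared were 8.56% higher and 6.62% lower. Tnfrsf1b, which encodes TNF receptor 2, was highest at 3.14 with 18 and 207 counts (95% interval 2.57 to 4.05), and Tnfrsf1a, which encodes TNF receptor 1, was lowest at -0.35 (1729 and 1623 counts). Of the signal carriers, Tradd, Ripk1, Map3k7, Tab2, Chuk, Ikbkb and Ikbkg had log2 ratios from -0.12 (Chuk) to 0.14 (Ikbkb), and Traf2 stood at 0.80. The genes of the inhibitors IκBα and A20, Nfkbia and Tnfaip3, had 2156 and 10342 counts and 743 and 4875 counts, past 2-fold each. Relb and Nfkb2, subunits of the non-canonical route, had log2 ratios of 1.46 and 1.27, whereas Rela and Nfkb1 stood at -0.10 and 0.08. Irf1, an interferon regulatory factor, had a log2 ratio of 1.76. Vcam1, at 3.91, lay above these 6 genes, although its interval (3.77 to 4.05) overlapped that of Tnfrsf1b, Cd47 at 1.52 lay between Relb and Irf1, with an interval (1.35 to 1.70) that overlapped both, and that of Icam1 (1.19 to 1.28) overlapped that of Nfkb2 (1.20 to 1.34).

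Since Vcam1, Icam2 and Mcam are also made by endothelium, pericytes or stroma, and Epcam is stronger in luminal than in basal cells, markers of these cells were counted. In bulk RNA, fewer cells of a type and less RNA per cell cannot be told apart. By flow cytometry, the paper reports a larger share of basal cells in colonies and organoids grown with TNF-α than in the control. In its macrophage co-culture experiment, most cells of the control colonies were luminal. Cell shares of the cultures sequenced here are not given in the sources used here, and their part in the ratios was not tested. The 10 endothelial markers summed to 32.2 CPM in the control and 20.5 CPM with TNF-α, of which Erg gave 22.7 and 11.9 CPM. Pecam1 had 117 and 114 counts, Cdh5, the highest of the list, had 112 and 157 (log2 ratio 0.22), and Cldn5, the lowest, had 16 and 2 (log2 ratio -2.35, 95% interval -6.42 to -1.17), the only one past the threshold. Over all genes compared, 8.56% were past 2-fold on the higher side and 6.62% on the lower side. The part of endothelial cells in the Vcam1 result was not tested. The 12 leukocyte markers summed to 8.93 and 7.40 CPM, and none was past 2-fold. Lyz2 (114 and 109 counts), Csf1r (92 and 81) and Cd68 (83 and 75) had the most counts. Ptprc (CD45) had 26 and 38 counts, and Cd3e had 0 in both libraries. Log2 ratios ran from -0.56 for Itgam to 0.82 for Fcgr3 (3 and 8 counts).

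The 7 pericyte markers summed to 214 CPM in the control and 158 CPM with TNF-α, with 2 past the lower threshold and log2 ratios from -1.25 for Abcc9 to 0.22 for Cspg4. The 8 fibroblast markers summed to 500.0 and 498 CPM, with 2 past the upper threshold, Dpt (20 and 622 counts, log2 ratio 4.58) and Dcn (184 and 582 counts, 1.39), while Pdgfra was at -0.02 and Col3a1 lowest at -0.66. The part of Dpt and Dcn expressing cells in the Vcam1 result was not tested. The 9 basal markers summed to 12447 and 11636 CPM, with 1 past the lower threshold (Oxtr, -1.19), and Vim highest at 0.33. All 10 luminal markers lay below a log2 ratio of 0, from -0.10 for Krt8 to -1.54 for Pgr, with 3 past the lower threshold (Pgr, Esr1 and Prlr), and they summed to 3679.7 CPM in the control and 2611 CPM with TNF-α. Epcam, at 0.29, did not go with them. These counts past the thresholds stand beside 8.56% higher and 6.62% lower over all genes compared. Of the surface proteins used for the sort, the gene of CD24, Cd24a, was lowest at -0.47, and Ptprc highest at 0.27.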

How the data were processed

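RNA-seq of 1 control and 1 TNF-α culture was analysed. The authors deposited raw read counts per gene, not normalized, with exon coordinates, strand and summed exon length, in the layout of a featureCounts table. The build is GRCm38 (mm10) in the submitters' processing notes, and the aligner, counter, annotation version, strand setting and read filters are not given in the sources used here. TMM scaling (edgeR 4.0.16, R 4.3.3) of these counts gave a library size ratio of 1.20 (TNF-α to control). Log2 ratios of CPM (prior count 2) were taken where both libraries together had 10 counts or more (10 counts were 0.224 and 0.187 CPM). RPKM used the deposited exon length. The quasi-likelihood test of edgeR needs replicates and could not be fitted; a gene is called by a fold past 2 alone, and no p-value is given. Ratio intervals are 95% Clopper-Pearson intervals of the read share, and level intervals are exact Poisson. The calculation was tested on simulated data that held counting error only, so the spread between cultures was not part of that test.

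The 9 genes and all lists were chosen with earlier results of these data known. Named genes are the 9 genes, all leukocyte receptors, Pecam1, Cdh5, Ptprc, the highest and lowest of each list, and the genes beside or overlapping a gene past 2-fold. A gene that this rule names is not reported here. Other genes and the promoter motifs were chosen after values were seen. No gene is named for likeness of pattern, since 2 libraries give 1 ratio per gene. Of the sort markers, Ly76 was not found in the table. Alternatives were total counts, DESeq2 (1.42.0) and upper quartile scaling, other prior counts, filters and folds, halved counts, a 2-fold call joined to a test on reads, an exact test in edgeR at coefficients of variation that were assumed, and lowess corrections (span 0.3). Figures were drawn with matplotlib 3.10.9, intervals came from scipy 1.17.1, lowess fits from statsmodels 0.14.6, and tables from pandas 2.3.3 and numpy 2.4.6 under Python 3.11.15.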

Additional observations from a re-analysis of the deposited data

How the results depend on the processing

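No paired analysis was possible because there was 1 control and 1 TNF-α library, which also barred leaving out a replicate. Vcam1, Cd47 and Icam1 were the genes more than 2-fold higher under scaling by total counts, upper quartiles or DESeq2 size factors, prior counts of 0.5 and 5, no filter, at least 1 CPM, halved counts, the lowess correction on GC content and length (chosen after seeing the data), the added test on reads and an assumed coefficient of variation of 0.2, and none of the 9 was more than 2-fold lower in any alternative. A fold of 1.5 added Cd44, and so did the lowess correction on length, which put Cd44 at 1.01 and Alcam at 0.32. With a fold of 3 the count was 1 (Vcam1), and with an assumed coefficient of variation of 0.4 it was also 1 (Vcam1). The correction on GC content and length put Icam1 at 1.32. Without a filter Icam2 entered and the median of the genes was 0.29 rather than 0.63. Over the other alternatives the median stayed between 0.62 and 0.67 and Vcam1 between 3.90 and 3.96, and no ratio of the 8 genes changed sign. Over all genes, 1777 were more than 2-fold higher, against 2679 with no filter, 836 with at least 1 CPM, 3210 and 875 with folds of 1.5 and 3, and 745 and 91 with assumed coefficients of variation of 0.2 and 0.4. On the lower side 1375 became 2996, 658, 2846, 587, 523 and 54 in the same order. The spread between cultures was not measured, and depth limits Icam2, Icam4, Sele and the leukocyte receptors.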
